A study of Mus musculus with 21 samples.

Results

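Small nucleolar RNA (snoRNA) host transcripts and nuclear long noncoding RNAs were examined in antigen-activated CD4+ T cells. The members were 10 named genes, chosen as known RNAs of these kinds, with earlier results of these data known. They were matched by symbol in the authors' table of 15249 named genes. A row of that name was found for 9 of the 10. They comprised 7 snoRNA hosts (Gas5, Snhg1, Snhg3, Snhg5, Snhg6, Snhg8 and Snhg12) and 2 nuclear long noncoding RNAs (Malat1 and Neat1), and Snhg4 was not analysed here. All 9 passed the filter of at least 10 counts over all libraries, as did 15300 of the 47643 genes counted.

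RNA was measured by QuantSeq, which sequences the 3′ end of polyadenylated transcripts primed with oligo-dT, in 21 libraries from 7 groups of 3 mice. Every mouse, controls included, was of the strain Tg4 Tiger Nr4a3-Tocky. Its T cells carry a transgenic receptor for a myelin basic protein (MBP) peptide, Tiger is a GFP reporter of Il10, and Nr4a3-Tocky makes a Timer protein that is blue when new and red once mature. The 6 immunised groups were given the 4Y MBP peptide subcutaneously with no adjuvant, at a dose of either 0.8 µg or 80 µg, and spleens were collected 4, 12 or 24 h later. The control group was untreated. The gate on CD4+ T cells took those blue alone (Blue+Red−) from the spleens at 4 h, the doubly coloured (Blue+Red+) from those at 12 h and the red alone (Blue−Red+) from those at 24 h. The gate for the controls and the age of the mice are not given in the sources used here. Time and gate therefore cannot be told apart, nor can antigen and gate in the comparisons with the control. All cells came from 1 receptor transgenic line, and the Timer reports Nr4a3 only.

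Host genes are transcribed to carry snoRNAs, which guide the modification of ribosomal and spliceosomal RNA and are cut out of the host's introns. The spliced host RNA encodes no known protein in most cases. Several hosts, Gas5 among them, belong to the 5′ terminal oligopyrimidine class, whose RNAs start with a run of C and T. The spliced RNA of such hosts is degraded in step with its translation. Malat1 is a very abundant RNA of nuclear speckles, the depots of splicing factors, and Neat1 is the scaffold around which paraspeckles assemble. Resting T cells make few ribosomes, and activation is known to start ribosome production.

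Sequence around the annotated start of the hosts is shown first because the pyrimidine run defines the class. RefSeq's promoter table on GRCm38.p6 held 8 entries for 7 of the 9 members, 6 of them hosts. Each sequence reads 5′ to 3′ on the gene's strand. Capitals mark the run of C and T that spans the annotated start, or for Snhg5, where no run spans it, the longest run within 20 bases. In the order printed the windows lie at chr1:161035126-161035195 (plus strand, the downstream of 2 Gas5 entries), chr4:132308638-132308707 (plus), chr3:123508307-123508376 (minus), chr19:8723447-8723516 (plus) and chr9:88522868-88522937 (minus).
Gas5: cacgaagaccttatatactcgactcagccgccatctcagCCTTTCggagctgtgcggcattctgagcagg
Snhg12: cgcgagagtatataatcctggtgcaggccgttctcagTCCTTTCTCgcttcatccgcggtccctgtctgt
Snhg8: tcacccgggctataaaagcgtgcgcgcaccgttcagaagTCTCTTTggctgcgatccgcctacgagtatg
Snhg1: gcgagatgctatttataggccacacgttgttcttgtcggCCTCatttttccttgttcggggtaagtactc
Snhg5: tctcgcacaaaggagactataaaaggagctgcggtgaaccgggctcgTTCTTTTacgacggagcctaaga

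The spanning run was 9 bases in Snhg12, 7 in Snhg8, 6 in Gas5 and 4 in Snhg1. A run of at least 6 was present in 3 of the 7 host entries, each of another gene, beside 7.25% of all 32851 entries. At a minimum of 8 it was present in 1 entry, that of Snhg12, beside 3.86% of entries. Counted with the annotated start as base 1, a run of 7 began at base 8 in Snhg5 and a run of 9 at base 5 in Snhg1, where 24.3% and 10.7% of all entries held a run at least as long within 20 bases of the start. Neither in Snhg3 nor in the upstream of the Gas5 entries, which starts at chr1:161034601, did a run span the start. Within the full promoter windows, TATAAA on either strand was found in Snhg1, Snhg3, Snhg5 and Snhg8, beside 13.6% of all entries. The letters TGACG, on either strand, occurred in Snhg8, Snhg12, Malat1 and the downstream Gas5 entry (20.8% of entries), and the last of these also held the longer motif TGACGTCA that contains them (1.79% of entries). CACGTG, at 7.15% of entries, was found in none. These are matches of letters, not measured binding.

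Library totals ranged from 2352800 to 6244279 counts, and 17.0 to 27.8% of a library fell on a single RNA, Gm42418. All 8 CD4+ T cell markers were measured, with summed levels of 1516 to 3715 CPM (counts scaled to a common library total) per library, highest in the controls (3516 to 3715). The 5 B cell markers summed to 2.03 to 63.7 CPM, highest in the controls (27.2 to 63.7), and the 5 erythroid markers to 5.31 to 212 CPM. At 24 h the B cell sum was 23.8 to 31.9 CPM with 0.8 µg and 6.53 to 12.5 CPM with 80 µg, and the 1 NK cell marker measured (2.07 to 4.49 against 0 to 1.63 CPM) and the 2 dendritic cell markers measured (0.972 to 2.07 against 0 to 0.160 CPM) did not overlap between doses either. The CD8 markers summed to 43.6 to 51.3 CPM with 0.8 µg and 13.1 to 22.7 CPM with 80 µg at 12 h, and to 34.3 to 40.9 against 20.1 to 28.8 CPM at 24 h. At 4 h the 6 myeloid markers summed to 10.04 to 29.8 CPM with 0.8 µg and 2.08 to 7.19 CPM with 80 µg. The CD4+ markers did not overlap between doses at 4 h (1999 to 2159 against 1617 to 1727 CPM) or 12 h (1516 to 1544 against 1841 to 2015 CPM). The part of these markers in the results, the dose differences at all 3 times included, was not tested. Within the groups sampled at 12 h, replicate 3 of 0.8 µg and replicate 2 of 80 µg stood apart in Gm42418, at 25.7% against 17.0 and 18.2%, and at 24.5% against 20.2 and 19.9%. The levels below are counts normalised by DESeq2 size factors (mean ± SD, n = 3 mice). A gene passed at a Benjamini-Hochberg adjusted p under 0.05 and was called where its shrunken log2 fold change was also above 1 or below -1. In bulk RNA, fewer cells that express a gene and less RNA per cell cannot be told apart.

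Most hosts were higher in the immunised groups by 4 h. Gas5, Snhg1, Snhg3, Snhg5 and Snhg12 passed the test in a rise over the control at 4 h and 12 h with either dose. Snhg1 rose 4.22-fold with 0.8 µg and 4.55-fold with 80 µg at 4 h. Snhg8 passed in none of the 6 comparisons with the control, and at 24 h Snhg12 lay below it with 80 µg.

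**Figure D1:**
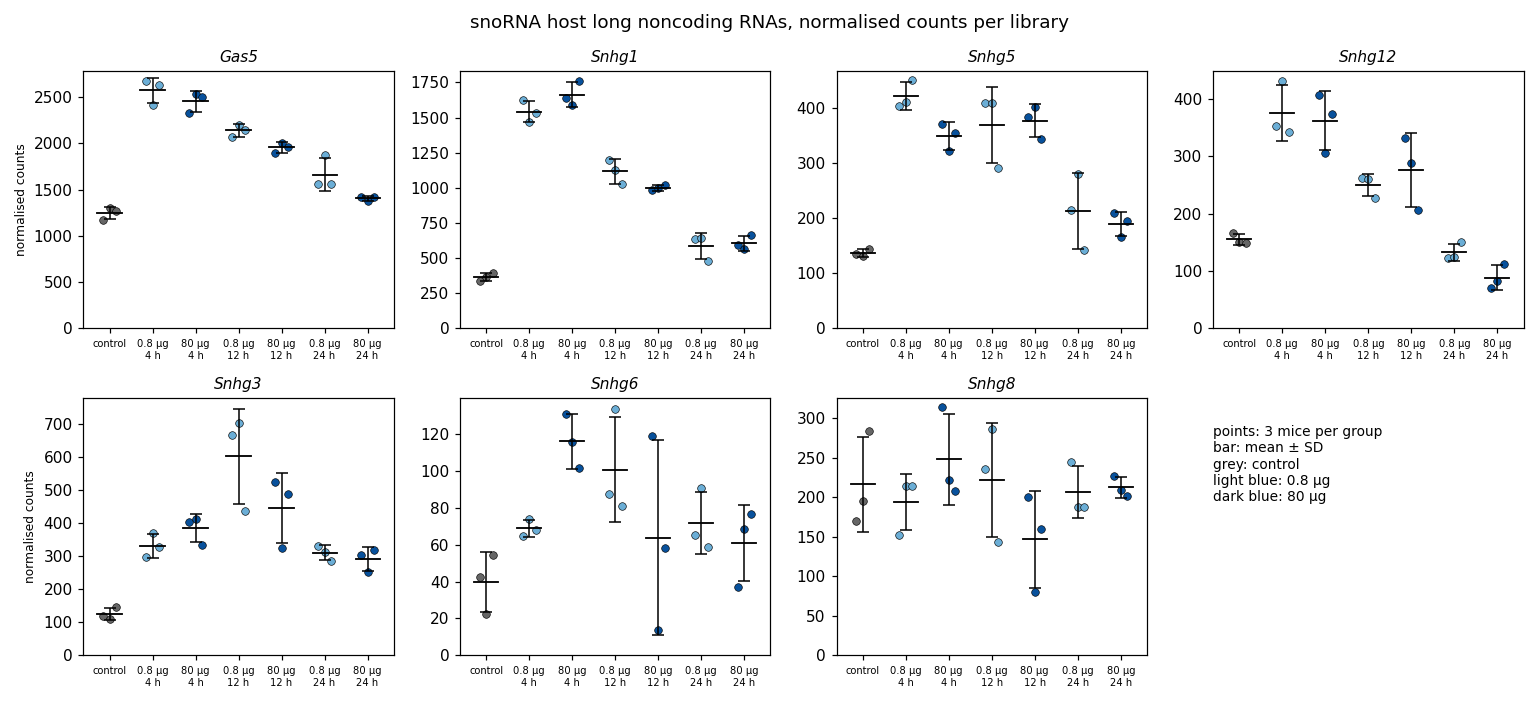
Normalised counts of the 7 snoRNA hosts in each library (y axis, linear) by group (x axis: control, then 0.8 µg and 80 µg at 4, 12 and 24 h); points are mice, bars are mean ± SD (n = 3). Gas5 and Snhg1 were highest at 4 h, Snhg3 was highest at 12 h with 0.8 µg, and the Snhg8 groups overlapped the control.

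Gas5 (ENSMUSG00000053332, chr1:161034422-161038539, plus strand, GRCm38), a transcript that accumulates when growth is arrested, lay at 1169, 1296 and 1268 normalised counts in the controls. At 4 h it lay at 2674, 2421 and 2630 with 0.8 µg and at 2329, 2534 and 2501 with 80 µg. At 12 h it lay at 2072, 2204 and 2146, then 1901, 2010 and 1958, and at 24 h at 1559, 1871 and 1559, then 1421, 1375 and 1422. Every immunised mouse was above every control mouse, and the order of the groups was 4 h, 12 h, 24 h, control, with only the 4 h groups overlapping their neighbour. Against the control the log2 fold change was 1.05 ± 0.08 (SE) with 0.8 µg and 0.98 ± 0.08 with 80 µg at 4 h (adjusted p = 2.90e-41 and 2.46e-36). It was 0.78 and 0.65 at 12 h. At 24 h it was 0.42 ± 0.08 with 0.8 µg (adjusted p = 5.88e-07) and 0.18 ± 0.08 with 80 µg, which missed the threshold (adjusted p = 0.0560). Without control replicate 2 the latter came to 0.21 and passed (adjusted p = 0.0495), as it did with TMM size factors (adjusted p = 0.0369).

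Snhg1 (ENSMUSG00000108414, chr19:8723475-8726443, plus strand), host of 8 annotated snoRNA genes, was at 337, 366 and 393 normalised counts in the controls. It was at 1622, 1469 and 1534 with 0.8 µg and 1637, 1590 and 1762 with 80 µg at 4 h. It was at 1201, 1128 and 1025, then 982, 997 and 1022, at 12 h, and at 633, 641 and 477, then 592, 562 and 664, at 24 h. No immunised library overlapped the controls, and each later time lay below the earlier one. The log2 fold change from control fell from 2.08 ± 0.11 and 2.18 ± 0.11 at 4 h (adjusted p = 3.31e-81 and 1.18e-90) to 0.68 ± 0.11 and 0.73 ± 0.11 at 24 h (adjusted p = 1.01e-08 and 2.67e-10).

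Snhg3 (ENSMUSG00000085241, chr4:132348014-132353686, minus strand), host of Snora73a and Snora73b, had its highest group means at 12 h with both doses. The controls held 120, 112 and 146 normalised counts. At 4 h the mice held 297, 369 and 328 with 0.8 µg and 405, 413 and 335 with 80 µg. At 12 h they held 666, 704 and 437, then 525, 326 and 489. The lowest at 12 h, 0.8 µg replicate 3 and 80 µg replicate 2, are the libraries that stood apart in Gm42418. At 24 h the levels were 332, 312 and 287, then 305, 251 and 319, still more than any control. The log2 fold change from control was 1.39 ± 0.19 and 1.60 ± 0.19 at 4 h, 2.25 ± 0.19 and 1.82 ± 0.19 at 12 h, and 1.30 ± 0.19 and 1.21 ± 0.19 at 24 h (adjusted p from 2.11e-31 to 2.84e-09).

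Snhg5 (ENSMUSG00000097195, chr9:88521050-88522929, minus strand), host of Snord50a and Snord50b, was at 134, 132 and 144 normalised counts in the controls. It was at 404, 411 and 451 at 4 h with 0.8 µg and at 370.4, 322 and 354 with 80 µg. It was at 408, 408 and 290.0, then 384, 402 and 343, at 12 h. Both times lay apart from the controls at both doses, and the log2 fold changes were 1.61 ± 0.18 and 1.34 ± 0.18 at 4 h and 1.43 ± 0.18 and 1.45 ± 0.18 at 12 h. At 24 h the levels were 215, 280 and 141 with 0.8 µg and 208, 165 and 195 with 80 µg. The 0.8 µg mice overlapped the controls, with a log2 fold change of 0.63 ± 0.19 (adjusted p = 0.00295) that fell to 0.39 without 0.8 µg 24 h replicate 2 and no longer passed (adjusted p = 0.108). The 80 µg mice did not overlap the controls, with 0.47 ± 0.19 (adjusted p = 0.0337), and it no longer passed without control replicate 1 (adjusted p = 0.0856) or 2 (0.0947) and without 80 µg 24 h replicate 1 (0.120) or 3 (0.0955). Nor did it pass with size factors from library totals (adjusted p = 0.186) or with limma (adjusted p = 0.0756).

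Snhg12 (ENSMUSG00000086290, chr4:132308623-132311024, plus strand), host of 5 snoRNA genes, reversed its position over time. The controls held 166, 151 and 148 normalised counts, and the 4 h mice held 353, 431 and 342 with 0.8 µg and 406, 306 and 374 with 80 µg. The 12 h mice held 262, 260 and 228, then 333, 288 and 206. Up to 12 h all immunised mice were above the controls, with log2 fold changes of 1.26 ± 0.18 and 1.21 ± 0.18 at 4 h and 0.68 ± 0.18 and 0.82 ± 0.18 at 12 h (adjusted p from 2.94e-11 to 0.000625). The 24 h mice held 123, 124 and 150 with 0.8 µg and 70.1, 81.7 and 112 with 80 µg. With 80 µg all 3 mice were below all controls, at a log2 fold change of -0.79 ± 0.19 (adjusted p = 0.000217), and with 0.8 µg the difference of -0.23 ± 0.19 did not pass (adjusted p = 0.362).

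Snhg6 (ENSMUSG00000098234, chr1:9941959-9944118, minus strand), host of Snord87, had the fewest counts of the hosts, 1650 over all libraries. The controls held 42.3, 22.3 and 54.2 normalised counts. At 4 h the levels were 64.6, 73.8 and 68.0 with 0.8 µg and 131, 115 and 101 with 80 µg. Neither 4 h group overlapped the controls, and the rise passed with 80 µg (1.48 ± 0.42 on the log2 scale, adjusted p = 0.00102) and not with 0.8 µg (0.77 ± 0.43, adjusted p = 0.117). At 12 h the levels were 87.2, 133 and 81.0 with 0.8 µg (1.29 ± 0.42, adjusted p = 0.00521), which no longer passed without control replicate 2 (1.00, adjusted p = 0.0547) or 0.8 µg 12 h replicate 2 (1.04, adjusted p = 0.0523). With 80 µg they were 119, 13.9 and 58.3 at 12 h, the widest spread of its 7 groups, and the difference of 0.65 ± 0.42 did not pass (adjusted p = 0.189). Without replicate 2 of that group, the one at 13.9, it came to 1.15 and passed (adjusted p = 0.00360). Over all fits with a library left out it ran from -0.12 to 1.15, so its sign was not stable. At 24 h the levels were 65.2, 90.5 and 58.8, then 37.3, 68.4 and 76.4, and neither passed (adjusted p = 0.120 and 0.265). In fits to only the 6 samples compared, the 0.8 µg differences passed at 4 h (0.82, adjusted p = 0.0323) and 24 h (0.84, adjusted p = 0.0398).

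Snhg8 (ENSMUSG00000104960, chr3:123507552-123508404, minus strand), host of Snora24, overlapped the control in every immunised group. The control level was 216 ± 60.0, and the group means ran from 147 ± 61.2 with 80 µg at 12 h to 248 ± 57.3 with 80 µg at 4 h. The 95% intervals of its 6 log2 differences from the control lay between -1.09 and 0.73. The largest difference was -0.55 ± 0.27 with 80 µg at 12 h (adjusted p = 0.0708), where the mice held 200, 80.0 and 160 normalised counts. It passed without control replicate 1 (adjusted p = 0.0366), without 80 µg 12 h replicate 1 (adjusted p = 0.00842) and with size factors from library totals (adjusted p = 0.0283).

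Counted together, the hosts, chosen with earlier results of these data known, were compared with all genes tested in the same comparison. At 4 h, 5 of 7 hosts passed as higher with 0.8 µg and 6 of 7 with 80 µg, beside 25.4% and 26.3% of all genes. None passed as lower, beside 29.2% and 30.7%. At 12 h, 6 and 5 of 7 passed as higher (25.2% and 25.3% of all genes) and none as lower (27.9% and 27.4%). At 24 h, 4 of 7 passed as higher with 0.8 µg (20.8% of all genes) and none as lower (15.2%), and with 80 µg 3 passed as higher (22.1%) and 1, Snhg12, as lower (16.9%). The number also past the fold was 5 and 5 at 4 h, where 17.3% and 18.4% of all genes were called as higher. It was 4 and 3 at 12 h (17.2% and 17.8%) and 1 and 1, Snhg3 at both doses, at 24 h (11.5% and 12.3%). The median log2 fold change of the 7 hosts was 1.26 and 1.34 at 4 h, 1.29 and 0.82 at 12 h and 0.63 and 0.47 at 24 h, beside medians over all genes of -0.13 and -0.15, -0.11 and -0.11, and 0.00 and -0.00. The 6 comparisons share the same 3 control mice. With size factors from library totals, which moved the median of all genes by -0.25 and -0.27 at 4 h, no host that had passed changed direction.

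**Figure D2:**
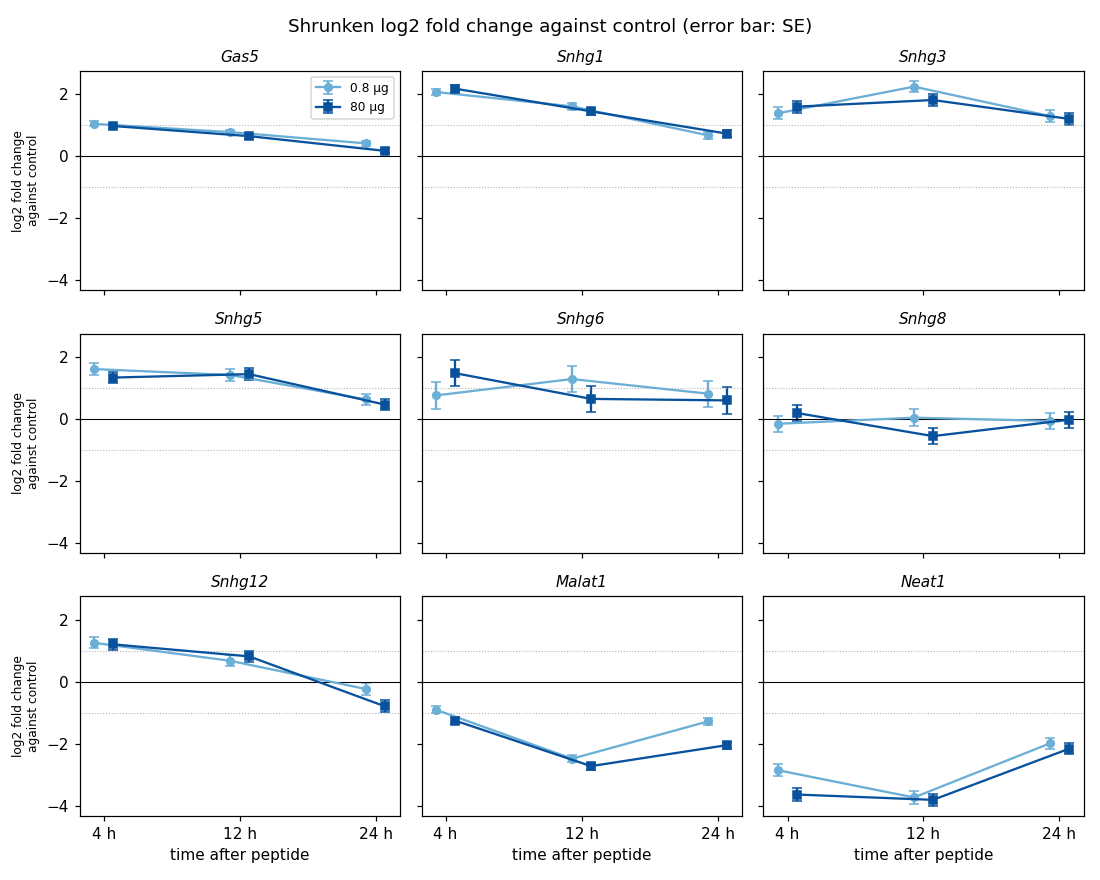
Shrunken log2 fold change from control (y axis, with SE bars) at 4, 12 and 24 h (x axis) for each member, 0.8 µg in light blue circles and 80 µg in dark blue squares; dotted lines mark 1 and -1. Most hosts lay above 0 and drew nearer to it at 24 h, while Malat1 and Neat1 lay below 0 throughout, lowest at 12 h.

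Malat1 and Neat1 moved the other way. Both passed as lower in all 6 comparisons with the control. Neat1 was 7.35-fold lower with 0.8 µg and 12.7-fold lower with 80 µg by 4 h, and Malat1 reached 5.61-fold and 6.62-fold lower at 12 h. Both were nearer to the control at 24 h than at 12 h.

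**Figure D3:**
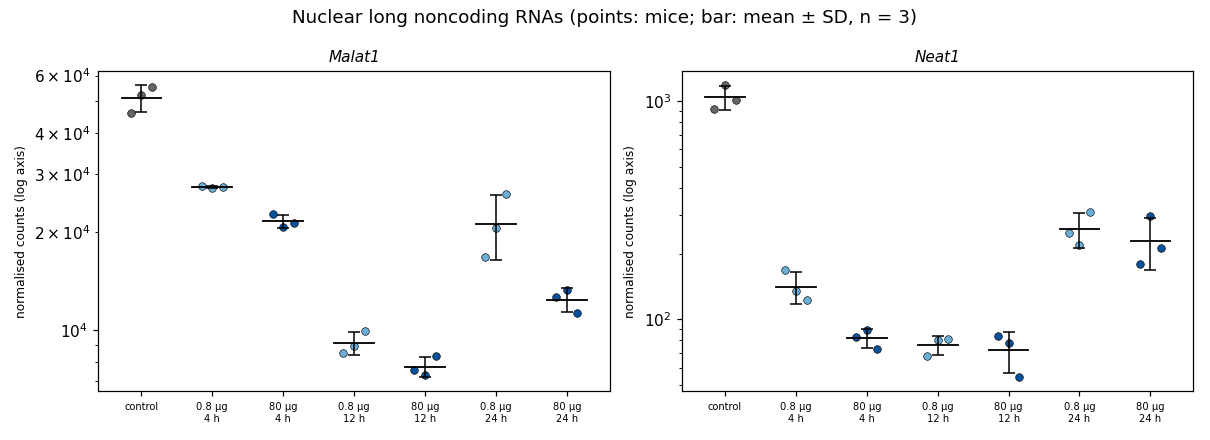
Normalised counts of Malat1 and Neat1 in each library (y axis, log scale) by group (x axis); points are mice, bars are mean ± SD (n = 3). No immunised library reached the lowest control library for either RNA, and the lowest group of both was 80 µg at 12 h.

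Malat1 (ENSMUSG00000092341, chr19:5795690-5802672, minus strand) lay at 46081, 52324 and 55382 normalised counts in the controls, a mean of 1.53% of all counts. At 4 h it lay at 27550, 27283 and 27375 with 0.8 µg and at 22570, 20680 and 21219 with 80 µg. At 12 h it lay at 8543, 8935 and 9952, then 7563, 7308 and 8346, when it was 0.272% and 0.227% of all counts. Each step down separated all 3 mice of a dose from the step before. At 24 h the levels were 16677, 20547 and 26061 with 0.8 µg and 12611, 13305 and 11272 with 80 µg. The log2 fold change from control was -0.90 ± 0.11 and -1.25 ± 0.11 at 4 h, -2.48 ± 0.11 and -2.72 ± 0.11 at 12 h, and -1.28 ± 0.11 and -2.04 ± 0.11 at 24 h (adjusted p from 1.88e-129 to 3.50e-15).

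Neat1 (ENSMUSG00000092274, chr19:5824708-5845478, minus strand) lay at 918, 1180 and 1016 normalised counts in the controls. At 4 h it lay at 168, 134 and 122 with 0.8 µg and at 83.3, 89.1 and 72.9 with 80 µg. At 12 h it lay at 67.6, 80.5 and 81.0, then 84.0, 77.8 and 54.4, so that the high dose was at its low level from 4 h while the low dose reached it at 12 h. At 24 h the levels were 249, 218 and 312, then 179, 297 and 211. The log2 fold change from control was -2.85 ± 0.19 and -3.64 ± 0.20 at 4 h, -3.73 ± 0.20 and -3.81 ± 0.20 at 12 h, and -1.99 ± 0.18 and -2.16 ± 0.18 at 24 h (adjusted p from 2.62e-82 to 3.42e-26).

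As a pair, they were called as lower with the fold in 1 of 2 (Neat1) with 0.8 µg at 4 h and in 2 of 2 in the other 5 comparisons. Of all genes, 23.4% and 25.1% were called as lower at 4 h, 20.5% and 20.1% at 12 h, and 5.84% and 7.91% at 24 h. In the priming of these libraries, runs of A inside a transcript can serve as well as the poly(A) tail, so runs were searched in 3 of the GENCODE vM21 transcripts. Of the 4 annotated Malat1 transcripts, Malat1-201, of 6983 bases, was searched, and it held 1 run of 12, at positions 6674 to 6685, 298 bases from its 3′ end (chr19:5795988-5795999, minus strand), shown here in capitals within its surroundings.
Malat1: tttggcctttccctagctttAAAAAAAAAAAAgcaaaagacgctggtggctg

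Of the 4 annotated Neat1 transcripts 2 were searched, and Neat1-201, of 20771 bases, had no run over 7 and Neat1-202, of 3004 bases, none over 5. Malat1 and Neat1 each overlap small annotated RNAs on their own strand (Gm27694 in Malat1, and Gm27505, Gm27533 and Gm28006 in Neat1). Malat1 also overlaps Gm37376 on the opposite strand, and the sources used here do not give the strand setting of the counting. The deposited counts carry no positions within a gene, so the part of these features in the levels was not tested. Which annotated transcripts of Malat1 and Neat1 gave the counts is not known either. A fall in a single transcript, such as the short or the long Neat1, cannot be told apart from a fall in all. The levels cover only RNA that oligo-dT primed.

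The doses were compared at each time to ask how antigen dose bears on these RNAs. At 4 h, Malat1 and Neat1 passed as lower with 80 µg, and at 24 h Malat1 and Gas5 did. No member passed at 12 h. Malat1 at 24 h, 1.70-fold lower with the high dose, was the dose difference that held under every alternative tried.

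**Figure D4:**
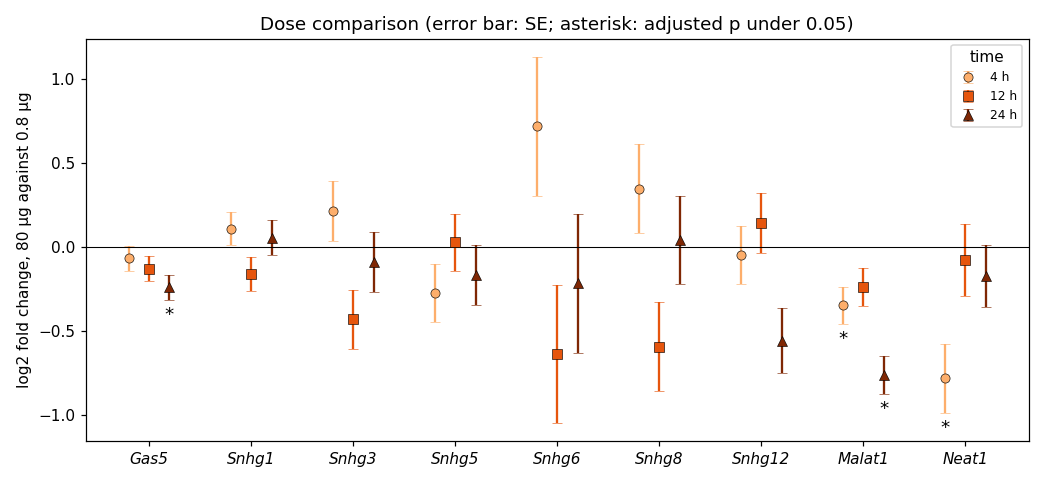
Shrunken log2 fold change of 80 µg against 0.8 µg (y axis, with SE bars) for each of the 9 members at 4, 12 and 24 h; asterisks mark adjusted p under 0.05. Malat1 and Neat1 at 4 h and Malat1 and Gas5 at 24 h carry asterisks, all of them below 0.

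At 4 h, 2 of 9 members passed, beside 12% of 10848 genes, and 0 of 9 were called with the fold, beside 5.85%. Neat1 differed by -0.78 ± 0.21 on the log2 scale (adjusted p = 0.00229), lower with 80 µg in every mouse. Without 0.8 µg 4 h replicate 1, the mouse with most Neat1, the value was -0.64 (adjusted p = 0.0593). Malat1 differed by -0.35 ± 0.11 (adjusted p = 0.0177), also with no overlap. It no longer passed without 0.8 µg 4 h replicate 1 (adjusted p = 0.0706) or 3 (0.0645), without 80 µg 4 h replicate 2 (0.0954) or 3 (0.0719), or with limma (0.179). Of the 7 hosts, 0 passed in DESeq2 and 0 had an unadjusted p under 0.05, and 0 passed in edgeR and in limma. Snhg6 alone passed in a DESeq2 fit to only the 6 samples compared (0.71, adjusted p = 0.0110). Their 95% intervals for the log2 difference ranged from -0.22 to 0.08 in Gas5 and -0.09 to 0.30 in Snhg1 to -0.10 to 1.60 in Snhg6. The mice of the 2 doses did not overlap in Snhg5, lower with 80 µg (-0.27 ± 0.17, adjusted p = 0.379), and in Snhg6, higher (0.72 ± 0.41, adjusted p = 0.316).

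At 12 h, 0 of 9 members passed in DESeq2, edgeR or limma, beside 6.27% of 11145 genes in DESeq2, and 0 were called with the fold, beside 2.79%. An unadjusted p under 0.05 was found in 3 of 9, namely Snhg3 (-0.43 ± 0.18, adjusted p = 0.139), Snhg8 (-0.60 ± 0.26, adjusted p = 0.199) and Malat1 (-0.24 ± 0.11, adjusted p = 0.229). The share of all genes at that unadjusted level is not given here, for the members or for the lists below. The number past the adjusted p rested on single libraries. Without 0.8 µg 12 h replicate 3, Snhg3 (-0.61, adjusted p = 0.00845) and Snhg8 (-0.82, adjusted p = 0.0383) passed. Without 80 µg 12 h replicate 1, Snhg6 (-1.44, adjusted p = 0.0113, from -0.64 with all libraries) and Snhg8 (-0.88, adjusted p = 0.0378) passed. Other omissions shrank the differences, at most to -0.25 in Snhg3, -0.19 in Snhg6 and -0.30 in Snhg8. In CPM, where the library total includes Gm42418, the summed level of the 7 hosts was 1182 in 0.8 µg 12 h replicate 3, against 1544 and 1597 in its group. In 80 µg 12 h replicate 2 it was 1133 CPM, against 1362 and 1266 CPM. In counts normalised by size factors the hosts differed. Gas5 was lowest in neither library (2146 against 2072 and 2204, and 2010 against 1901 and 1958), and Snhg3 was lowest in both (437 and 326).

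At 24 h, 2 of 9 members passed, beside 5.93% of 9663 genes, and 0 were called with the fold, beside 1.56%. Malat1 differed by -0.76 ± 0.11 (adjusted p = 2.28e-09), with every 80 µg mouse below every 0.8 µg mouse. Leaving out each library in turn gave -0.91 to -0.59. Gas5 differed by -0.24 ± 0.08 (adjusted p = 0.0294) with no overlap. It no longer passed with TMM size factors (adjusted p = 0.0594), edgeR (0.104), limma (0.316), a filter of 10 counts in 3 samples (0.0534) and a fit to the 6 samples compared (0.155). Nor did it pass without 0.8 µg 24 h replicate 2, where it came to -0.15 (adjusted p = 0.326), or without 80 µg 24 h replicate 1 (0.0709), 2 (0.127) or 3 (0.0871). Snhg12 did not overlap between doses and differed by -0.56 ± 0.19, which did not pass (adjusted p = 0.0588). Without 80 µg 24 h replicate 3 it was -0.77 and passed (adjusted p = 0.0120), as it did with size factors from library totals (adjusted p = 0.0287). Neat1 differed by -0.17 ± 0.19 (95% interval -0.54 to 0.19), and its groups overlapped.

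Whether the dose difference changed with time was tested with an interaction term over the 18 immunised libraries. The term passed in 1 of 9 members, Malat1 (adjusted p = 0.0321), beside 10.4% of 9958 genes. Its dose difference was -0.35 at 4 h, -0.24 at 12 h and -0.76 at 24 h. With a library left out in turn it no longer passed in 9 of 18 fits, with adjusted p from 5.39e-05 to 0.155. In the other members the adjusted p of the term ran from 0.164 to 0.755. With a library left out, Snhg3 and Snhg6 passed in 1 fit each and Snhg8 and Snhg12 in 2 each.

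From 4 h to 12 h with 0.8 µg, 4 of 7 hosts passed. Gas5 (-0.27 ± 0.07, adjusted p = 0.00155), Snhg1 (-0.46 ± 0.10) and Snhg12 (-0.58 ± 0.18) fell, and Snhg3 rose (0.86 ± 0.18, adjusted p = 1.14e-05). Of all genes, 20.9% passed as higher and 18.2% as lower. The Gas5 fall no longer passed with size factors from library totals (adjusted p = 0.122) or with limma (0.0694). With 80 µg, 3 of 7 hosts fell, Gas5 (-0.33 ± 0.07), Snhg1 (-0.73 ± 0.10) and Snhg8 (-0.74 ± 0.26, adjusted p = 0.0138), and none rose, beside 23.6% of all genes as higher and 19.3% as lower. The Snhg8 fall no longer passed without 80 µg 4 h replicate 1 (adjusted p = 0.122) or 80 µg 12 h replicate 2 (0.151), in a fit to the 6 samples compared (0.142) or with library totals (0.0647). Snhg6 (-0.83) ran from -1.63 to -0.38 over the fits with a library left out. It passed only without 80 µg 12 h replicate 1 (-1.63, adjusted p = 0.000288). Snhg12 (-0.39) passed without that library (-0.54, adjusted p = 0.0137), without 80 µg 4 h replicate 2 (-0.49, adjusted p = 0.0290) and with the filter of 10 counts in 3 samples (adjusted p = 0.0468). Snhg3 did not pass with 80 µg (0.21 ± 0.18, 95% interval -0.14 to 0.57). Malat1 fell 3.00-fold with 0.8 µg and 2.78-fold with 80 µg. Neat1 fell with 0.8 µg (-0.88 ± 0.21, adjusted p = 0.000136) and did not pass with 80 µg (-0.17 ± 0.21, adjusted p = 0.555). Malat1 was the 1 member called with the fold at each dose, beside 20.5% and 24.8% of all genes.

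From 12 h to 24 h, 5 of 7 hosts fell at both doses, Gas5, Snhg1, Snhg3, Snhg5 and Snhg12, and none passed as higher. Snhg8 with 80 µg differed by 0.53 ± 0.26 (adjusted p = 0.0922) without overlap, and without 80 µg 12 h replicate 1 it came to 0.81 and passed (adjusted p = 0.0123). With another library left out it came to as little as 0.23. Of all genes, 19.1% fell and 24.9% rose with 0.8 µg, and 19.8% fell and 24.9% rose with 80 µg. The falls ran from -0.36 in Gas5 to -0.95 in Snhg3 with 0.8 µg, and from -0.48 in Gas5 to -1.61 in Snhg12 with 80 µg. Snhg12 thus went from 276 ± 64.2 to 88.0 ± 21.7 normalised counts with the high dose. Malat1 and Neat1 rose at both doses, Malat1 2.31-fold and 1.60-fold and Neat1 3.40-fold and 3.17-fold. With the fold, Malat1 and Neat1 were called with 0.8 µg (26.6% of all genes were) and Neat1 and Snhg12 with 80 µg (27.2%).

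The snoRNAs that the hosts carry were looked for in the count table, where GENCODE places 29 snoRNA genes inside the 7 hosts. Mature snoRNAs have no poly(A) tail, and 25 of the 29 had no count in any library. All 25 lie in an exon of at least 1 annotated transcript of their host, where reads may be set aside or given to the host in counting, and the part of this in the zeros was not tested. Of the other 4, Snora73b in an intron of Snhg3 had 5512 counts over all libraries, Snord87 in an intron of Snhg6 had 303, a Snora16a gene in an exon of Snhg12 had 24 and Snora73a in an exon of Snhg3 had 17. Snora73b, a gene of the U17 snoRNA, which takes part in the processing of ribosomal RNA, is described because it had most counts and was chosen after its values were seen. It lay at 9.28, 12.2 and 12.8 normalised counts in the controls and at 83.6 ± 9.15 and 81.0 ± 9.88 at 4 h with 0.8 µg and 80 µg. It reached 549, 480 and 647, then 532, 654 and 671, at 12 h, and 155 ± 28.7 and 161 ± 21.2 at 24 h. The log2 fold change from control was 2.76 ± 0.30 and 2.71 ± 0.30 at 4 h, 5.47 ± 0.29 and 5.62 ± 0.29 at 12 h and 3.64 ± 0.29 and 3.69 ± 0.29 at 24 h. Between doses it did not pass (adjusted p = 0.942, 0.726 and 0.930). The maximum of Snora73b fell at 12 h, as did that of its host Snhg3.

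Genes beside the hosts did not share one course. Snhg1 starts 106 bases from Slc3a2, a subunit of amino acid transporters on the opposite strand. Slc3a2 rose by 1.99 ± 0.17 and 2.53 ± 0.17 on the log2 scale at 4 h and by 1.25 and 1.19 at 12 h. It did not pass at 24 h (-0.10 and -0.32). Between doses at 4 h it was higher with 80 µg (0.53 ± 0.16, adjusted p = 0.0115), and the value for Snhg1 was 0.11 ± 0.10 (adjusted p = 0.604). Zbtb37, a zinc finger gene that starts 427 bases from Gas5 on the opposite strand, fell in all 6 comparisons with the control. Its log2 fold changes were -1.32 and -1.39 (4 h), -0.90 and -1.16 (12 h) and -0.97 and -1.21 (24 h), where Gas5 rose or did not pass. Rcc1, the exchange factor of the Ran GTPase, shares its strand and exon sequence with Snhg3, and their starts are 81 bases apart. It rose by 2.37 and 2.96, 3.04 and 2.77, and 1.72 and 2.14. How reads from the shared part were assigned is not given in the sources used here, so the values of both are uncertain. Snhg3 also overlaps Gm17300, and Snhg6 overlaps Mcmdc2, on the opposite strand, and the strand setting of the counting step is not given in the sources used here. Mcmdc2 was tested with 80 µg at 12 h only, at a mean of 0 against 3.73 normalised counts in the controls, and did not pass.

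Lists of related genes are given with their counts past the adjusted p and their median log2 fold change from the control, in the order 0.8 µg, 80 µg, and the shares and medians of all genes are those stated with the hosts. Other long noncoding snoRNA hosts were higher at 4 h. The list held Mir17hg, which hosts microRNAs, and is counted here without it. Of 13 listed, 7 could be tested, and all 7 passed as higher at 4 h with either dose, with a median of 1.39 and 1.37 (8 of 8, with 1.44 and 1.48, when Mir17hg is kept). Snhg15 rose by 3.13 ± 0.23 and 3.28 ± 0.22. Mir17hg rose by 2.44 ± 0.18 and 2.52 ± 0.17. At 12 h 5 of 7 passed as higher at both doses, Zfas1 among them (1.67 and 1.45). At 24 h 3 passed as higher and 2 as lower with 0.8 µg, and 2 and 2 with 80 µg. Zfas1 (0.86 and 0.98) and Snhg9 (0.80 and 0.60) were higher, and Snhg17 (-0.64 and -1.04) and Snhg20 (-0.76 and -0.80) were lower. The median was 0.96 and 1.05 at 12 h and 0.34 and -0.16 at 24 h. Between doses 0 of 7 passed in DESeq2 at any time, with an unadjusted p under 0.05 in 0, 0 and 1 at 4, 12 and 24 h.

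Protein-coding genes that host snoRNAs divided. Of 24 tested, 14 and 17 passed as higher and 5 and 3 as lower at 4 h, with a median of 0.27 and 0.36. The nucleolar proteins Ncl (3.55 and 3.58) and Nop56 (3.07 and 2.96) rose most, and the translation-linked Tpt1 (-0.78 and -0.49) fell. At 12 h 16 and 16 were higher and 3 and 2 lower, with the chaperonin subunit Cct6a at 3.02 and 2.98. At 24 h 14 and 14 were higher and 3 and 2 lower, and Ncl still lay at 1.74 and 1.53. Between doses 3 of 24 passed at 4 h, all higher with 80 µg, 2 at 12 h and 1 at 24 h, beside 12%, 6.27% and 5.93% of all genes, and these shares apply to the dose counts of the other lists as well.

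The proteins that bind and assemble snoRNAs rose as a list. Of 18 tested, 17 and 17 passed as higher at 4 h, 17 and 18 at 12 h and 16 and 14 at 24 h, and 0 passed as lower in DESeq2 in any of the 6, where no further protein had an unadjusted p under 0.05. Their median log2 fold change was 2.50 and 2.64 at 4 h, 2.56 and 2.49 at 12 h and 0.92 and 0.76 at 24 h. Naf1, an assembly factor of H/ACA particles, rose by 3.99 ± 0.19 and 4.02 ± 0.19 at 4 h, and the nucleolar chaperone Nolc1 by 3.58 ± 0.14 and 3.61 ± 0.14. Nhp2, a core H/ACA protein, was at 1.62 ± 0.17 and 1.37 ± 0.17 at 24 h. From 12 h to 24 h 17 of 18 fell at each dose, with a median of -1.52 and -1.72. With 0.8 µg the other, Pih1d1, rose (0.77 ± 0.25, adjusted p = 0.00604), and with 80 µg 1 did not pass. Between doses at 24 h the C/D methyltransferase Fbl (-0.77 ± 0.22, adjusted p = 0.0133) and Nop56 (-0.37 ± 0.11, adjusted p = 0.0175) were lower with 80 µg. At 4 h Nop10 (0.23 ± 0.08, adjusted p = 0.0376) and at 12 h Pih1d1 (0.75 ± 0.25, adjusted p = 0.0426) were higher.

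**Figure D5:**
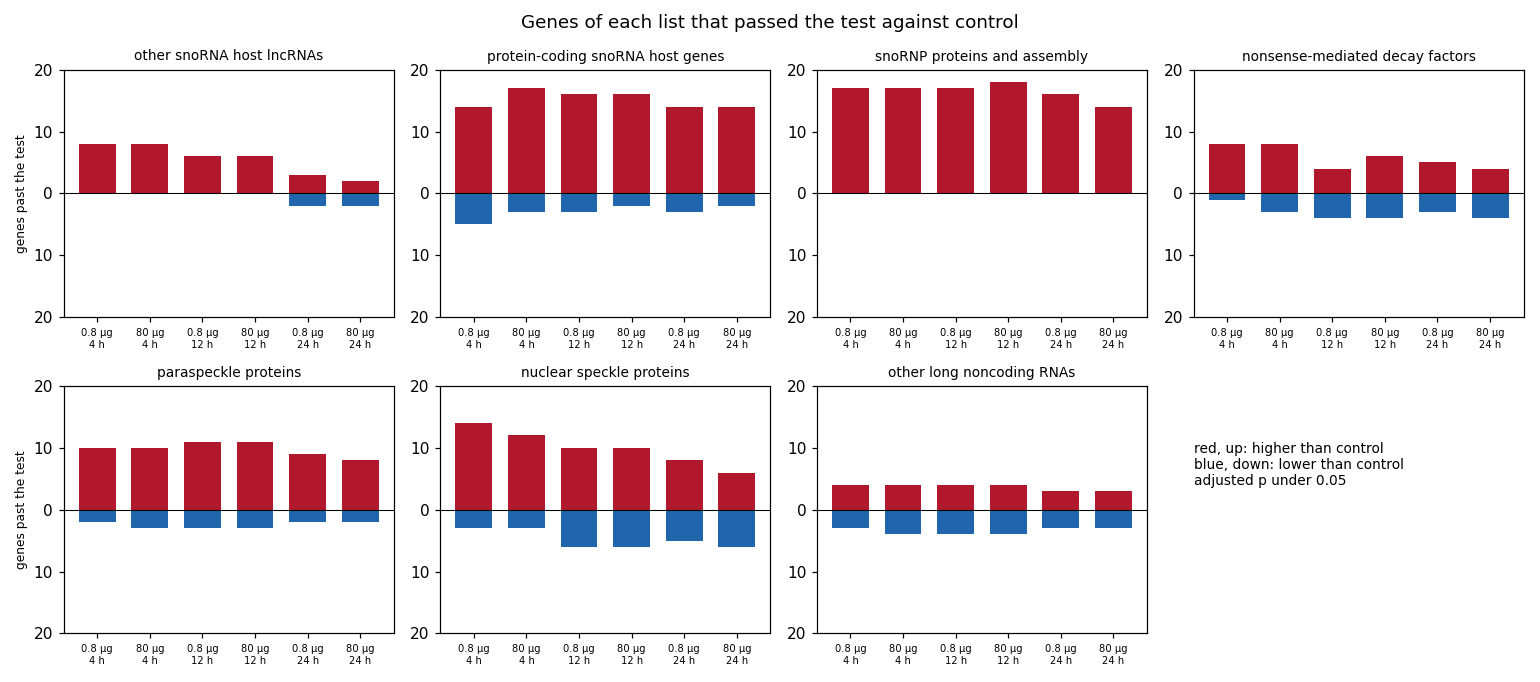
Number of genes of each of 7 lists past the adjusted p (y axis; red, upward, for higher and blue, downward, for lower) in each of the 6 comparisons with the control (x axis). The snoRNP list shows no bar for lower, and the other snoRNA hosts, Mir17hg included here, are all higher at 4 h and divided at 24 h.

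Factors of nonsense-mediated decay, the pathway that degrades spliced host RNAs, did not move as one. Of 14, 8 and 8 passed as higher and 1 and 3 as lower at 4 h, 4 and 6 as higher and 4 and 4 as lower at 12 h, and 5 and 4 as higher and 3 and 4 as lower at 24 h. The median was 0.70 and 0.67, 0.29 and 0.29, and -0.03 and -0.12. The exon junction proteins Rbm8a (1.88 and 2.01) and Magoh (1.77 and 1.99) rose at 4 h, and Upf3b, which links that complex to decay, fell (-0.54 and -0.56). The kinase Smg1 lay at -1.01 and -1.08 at 12 h. Between doses at 4 h, Smg6 (-0.54 ± 0.14, adjusted p = 0.00114) and Upf3a (-0.68 ± 0.22, adjusted p = 0.0209) were lower with 80 µg, 2 of 14. At 12 h and 24 h 0 of 14 passed in DESeq2, with an unadjusted p under 0.05 in 2 and 0.

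Most paraspeckle proteins that passed were higher than in the control. Of 17, 10 and 10 passed as higher and 2 and 3 as lower at 4 h, 11 and 11 as higher and 3 and 3 as lower at 12 h, and 9 and 8 as higher and 2 and 2 as lower at 24 h. The median was 0.56 and 0.73, 0.67 and 0.50, and 0.31 and 0.34. Sfpq, a core paraspeckle protein, rose by 1.19 ± 0.09 and 1.25 ± 0.09 at 4 h. Hnrnph3 (-1.23 and -1.16) and Zc3h6 (-3.39 ± 0.47 and -3.56 ± 0.47) fell at 4 h, and Zc3h6 reached -4.14 and -4.30 after 12 h. At 12 h few counts of Zc3h6 were left, 5.60 ± 4.34 and 5.01 ± 4.79 normalised, against 127 ± 8.55 in the controls. Between doses 1 of 17 passed at 4 h, Rbmx (-0.69 ± 0.25, adjusted p = 0.0477), and 0 at 12 h and 24 h in DESeq2, with an unadjusted p under 0.05 in 3 and 0.

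Nuclear speckle proteins, which share a compartment with Malat1, rose in part. Of 18, 14 and 12 passed as higher and 3 and 3 as lower at 4 h, 10 and 10 as higher and 6 and 6 as lower at 12 h, and 8 and 6 as higher and 5 and 6 as lower at 24 h. The median was 0.69 and 0.56, 0.35 and 0.42, and 0.12 and 0.05. The splicing factors Srsf2 (1.85 and 1.95 at 4 h) and Srsf3 (2.01 and 1.82 at 12 h) rose. The kinase Clk1, which phosphorylates such factors, fell at 4 h (-1.27 and -1.32) and 12 h (-1.89 and -2.07). Srsf5 fell at 24 h (-0.72 and -1.26) and was lower with 80 µg than with 0.8 µg at that time (-0.54 ± 0.14, adjusted p = 0.00419). Srrm2, a speckle scaffold, was lower with 80 µg at 4 h (-0.31 ± 0.06, adjusted p = 2.61e-05). Between doses 1 of 18 passed at 4 h, 0 at 12 h in DESeq2, with an unadjusted p under 0.05 in 5, and 3 at 24 h, all lower with 80 µg, Srsf6 among them (-0.31 ± 0.09, adjusted p = 0.0230).

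Among other long noncoding RNAs, 13 of 18 listed were tested against the control, and those past the adjusted p were about evenly higher and lower, 4 and 3 with 0.8 µg and 4 and 4 with 80 µg at 4 h. At 12 h they were 4 and 4 at both doses, and at 24 h 3 and 3. The median was -0.09 and -0.13, -0.17 and 0.15, and -0.37 and -0.37. Mir155hg, host of the activation-linked miR-155, rose by 7.15 ± 0.35 and 7.37 ± 0.35 at 4 h, and Pvt1 by 2.45 ± 0.27 and 2.33 ± 0.27. Rpph1, the RNA of ribonuclease P, stood at 4.52 ± 0.47 and 4.57 ± 0.47 at 12 h. The controls held few counts of Mir155hg (5.73 ± 4.51 normalised) and Rpph1 (5.59 ± 3.63), so the size of these folds is uncertain. At 12 h Rpph1 lay at 169 ± 49.9 with 0.8 µg and 175 ± 122 with 80 µg. Lncpint (-1.57 and -1.81) and Mir142hg (-1.18 and -1.58) fell at 4 h. Between doses at 24 h Mir155hg (-1.51 ± 0.22, adjusted p = 1.57e-09) and Kcnq1ot1 (-0.28 ± 0.08, adjusted p = 0.0199) were lower with 80 µg, 2 of 12 tested. At 12 h 1 of 12 passed, Kcnq1ot1 (-0.24 ± 0.08, adjusted p = 0.0473), and at 4 h 0 passed in DESeq2, with an unadjusted p under 0.05 in 1.

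Finally, for each member the genes with the most similar course were found, by Pearson's r of the log2 group means over the 7 groups among 6624 other genes whose normalised counts averaged 50 or more. These r are descriptions over 7 points that share the same libraries. For the hosts they were Gadd45b (0.997) and Oxsr1 (0.995) for Gas5, Slc38a1 and Nsrp1 (both 0.998) for Snhg1, and Sfpq (0.995) and Gm45902 (0.994) for Snhg3. They were Fasn (0.996) and Slc25a39 (0.995) for Snhg5, and Gm26830 and Gm10616 (both 0.994) for Snhg12. Snhg6 (Smarce1, 0.920, and Samsn1, 0.916) and Snhg8 (Pip4k2c, 0.893, and Ing3, 0.887) had less close matches. Mysm1 (0.998) and Gm44829 (0.991) followed Malat1, and Trim26 and Zfp113 (both 0.995) followed Neat1. Among the members, r was 0.976 between Gas5 and Snhg1, 0.945 between Gas5 and Snhg5, -0.0349 between Gas5 and Snhg8, 0.766 between Malat1 and Neat1, and -0.952 between Snhg3 and Neat1.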

How the data were processed

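The libraries were made and processed by the authors. Per the labels and the study's methods, CD4+ T cells were sorted on Nr4a3-Timer, RNA was prepared with PicoPure and libraries with the forward QuantSeq kit, reads were trimmed with Bbduk and aligned with STAR 2.5.2a to GRCm38 (mm10), and HTSeq assigned them to genes. The sources used here give neither the annotation release nor the strand setting of the counting, and mention no molecular identifiers. The authors deposited raw counts per gene, with no normalisation, and a table of log2 values, the regularised log (rlog) made with DESeq2 after removal of genes with few reads. The 3 libraries of a group are biological replicates per the labels.

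DESeq2 1.42.0 in R 4.3.3 was run on the deposited counts of genes with at least 10 counts over all 21 samples, with 1 coefficient per group, normal shrinkage and Benjamini-Hochberg adjustment over all genes tested. The 13 comparisons were 3 of dose, 6 with the control and 4 of time. A likelihood ratio test of dose by time used the 18 immunised samples. Alternatives were TMM size factors, library totals without Gm42418, mt-Rnr1 and mt-Rnr2, edgeR 4.0.16 (quasi-likelihood test), limma 3.58.1 on the deposited rlog values, no filter, 10 counts in 3 samples, unshrunken values, only the 6 samples compared, a replicate block and leaving out each library. The tests were run on simulated data first. Fold changes in words are ratios of mean normalised counts, and ± after a log2 value is its SE. Locations and A runs are from GENCODE vM21 and promoter sequences from RefSeq, counted from 1. No pair of libraries held identical counts.

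Named genes were the members, their neighbours, the 2 genes most like each member, and of each list up to 2 genes each way with the largest change among those past the adjusted p that averaged 20 normalised counts or more. Leaving Mir17hg out of the list of other hosts was chosen after seeing the data. The members and lists were chosen with earlier results of these data known, and the list of snoRNA binding proteins shares Nop56 with that of coding hosts. Some genes that this rule names are not reported here.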

Additional observations from a re-analysis of the deposited data

Results flagged for a closer look

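Malat1 was singled out because its difference between the doses itself differed between the times, by a test of that difference. The dose by time interaction in DESeq2 gave an adjusted p of 0.0321 for Malat1, the only member that passed, beside 10.4% of 9958 genes. Leaving out a library in turn, Malat1 no longer passed in 9 of 18 fits (adjusted p from 5.39e-05 to 0.155). The dose difference (80 µg against 0.8 µg, log2) was -0.35 at 4 h, -0.24 at 12 h and -0.76 at 24 h. At 24 h its 0.8 µg mice were the most spread of the immunised groups, at 16677, 20547 and 26061 normalised counts.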

How the results depend on the processing

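Of the 70 member differences past the adjusted p, 0 changed sign under any alternative, and of the 47 not past it 18 did, at most to 0.74 (Snhg6, 24 h against 12 h with 80 µg). Members past the adjusted p in the dose comparison numbered 2 at 4 h (1 with limma, 3 with only the 6 samples compared, 0 to 2 leaving out a library), 0 at 12 h (0 to 2 leaving out a library, and 0 to 1 past the fold) and 2 at 24 h (1 with TMM, edgeR, limma, 10 counts in 3 samples or only the 6 samples compared, 3 with library totals, 1 to 2 leaving out a library). With 80 µg, 4 members passed in 12 h against 4 h, and 3 to 6 leaving out a library. The interaction passed in 1 member, and in 0 to 3 leaving out a library. Past the fold, 24 h against 12 h with 0.8 µg went from 2 to 5 with edgeR, to 4 with only the 6 samples and to 2 to 4 leaving out a library. For 12 h against 4 h the 1 member became 1 to 2 with 0.8 µg and 1 to 3 with 80 µg. Genes past the adjusted p between doses at 12 h went from 699 to 456 with only the 6 samples and to 451 without 80 µg 12 h replicate 2, and at 24 h from 573 to 361 with limma and to 379 without 80 µg 24 h replicate 3. The cause was not tested. Library totals moved the median of all genes by -0.12 and -0.13 in the 12 h comparisons with the control, by -0.16 with 80 µg at 24 h and by 0.13 and 0.14 in 12 h against 4 h. The share of passing genes that were higher went from 62.8 to 40.9% between doses at 24 h. Samples of the same replicate number showed little likeness (r from -0.144 to 0.179 over 63 same-numbered pairs, 6 over 0.1, and 7 of 21 samples nearest to their own number). Such r cannot show that no samples were sorted or processed together. The replicate block moved none of 126 results across its threshold. At the depth of Snhg6, with 13.9 to 133 normalised counts in a library, dose intervals spanned over 1 log2 unit.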
